A study of Mus musculus with 24 samples.

Results

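Cardiomyocytes of mice with a cardiac deletion of Top2b were compared with those of wild-type mice. Both had an injection of phosphate-buffered saline (PBS) 16 h before, so that the genotypes met without doxorubicin. The comparison holds 6 of the series' 24 arrays, 3 Top2b-deleted and 3 wild-type, and the members were chosen by sample title, time and injection. The other 18 arrays carry doxorubicin or the later time of 72 h. Of these, the 6 PBS arrays of 72 h are compared in the same way, as separate samples of each genotype. The doxorubicin arrays are not compared here, but those of each time enter the fits. There they help to set the spread and the choice of probes. Each array measured RNA of live cardiomyocytes isolated from the perfused heart. The Top2b-deleted mice are described as a conditional knockout in cardiomyocytes, on a mixed 129SvEv and C57BL/6 background shared with the wild-type mice, and all are given as male and 6 weeks old. The sources used here name neither the promoter that drove the recombinase nor whether wild-type mice carried it. Nothing in the labels ties an array to its own animal, and the p-values therefore cover only the spread from array to array.

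Top2b encodes DNA topoisomerase II beta, the type II topoisomerase that remains in cells which no longer divide. The enzyme cuts both strands of DNA, passes another duplex through the gap and reseals it, which removes the supercoils and tangles that transcription leaves behind. Its relative topoisomerase II alpha, encoded by Top2a, serves dividing cells, and topoisomerase I relaxes supercoils through a single-strand nick. Cardiomyocytes rely on topoisomerase II beta almost alone, and it is known as the target through which anthracyclines act on the heart.

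All levels are log2 signals relative to the 75th percentile of their own array, and differences are Top2b-deleted minus wild type. The 75th percentile of the processed signal lay between 180 and 263 on the 6 arrays, 42.9% to 47.9% of spots were well above background, and correlations between arrays of 1 group were 0.991 to 0.995. The genotype characteristic of Top2b-deleted replicate 3 and of wild-type replicate 3 contradicts their titles. Top2b-deleted replicate 3 was hybridised on another slide than the other 5 arrays.

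The deleted gene itself was lower on every Top2b-deleted array. Top2b stood at 2.97, 2.86 and 3.03 on the Top2b-deleted arrays, against 4.03, 4.23 and 4.04 on the wild-type arrays. The groups did not overlap, and both arrays with contradictory labels sat with the genotype of their titles. The difference was -1.14 ± 0.19 (limma SE, n = 3 each), which leaves 45.3% of the wild-type signal (limma, adjusted p = 0.0040). Here and below, the SE takes its spread from all 12 arrays of 16 h, doxorubicin arrays included. From the 6 PBS arrays alone the SE of Top2b was 0.095. An exact permutation test of the Top2b difference gave p = 0.1, two-sided, the smallest that 3 against 3 arrays allow. The probe lies on chromosome 14 from 17263157 to 17263216 (mm9, plus strand). Whether that stretch is inside the deleted part is not given, so the remaining signal does not measure how many cells kept the gene. In RNA of many cells, fewer cells of a type and less RNA per cell cannot be told apart.

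No other topoisomerase passed the threshold, an adjusted p of 0.05 over all genes tested. Top1 was at 3.07, 3.04 and 3.02 in Top2b-deleted cardiomyocytes, against 2.75, 2.73 and 2.77 in wild-type cardiomyocytes, a difference of 0.29 ± 0.16 (adjusted p = 0.26). These groups did not overlap, but nor did the groups of 8696 of the 17916 autosomal genes tested (48.5%). Top3a, a type I enzyme that resolves recombination intermediates, differed by -0.52 ± 0.17 (adjusted p = 0.080). Mitochondrial Top1mt differed by 0.02 ± 0.15, Top3b by -0.07 ± 0.10, and the repair enzymes Tdp1 and Tdp2, which remove trapped topoisomerases from DNA, by -0.27 ± 0.29 and 0.16 ± 0.13. The Top2a probe was well above background on 1 of 3 Top2b-deleted arrays and on 0 of 3 wild-type arrays. Among 14 measured chromatin proteins listed as partners of topoisomerase II, Hdac1 alone passed (7.14%, below the 12.4% over all autosomal genes). This histone deacetylase was at 2.27, 2.52 and 2.46 against 3.29, 3.29 and 3.24 in wild-type cardiomyocytes (-0.86 ± 0.11, adjusted p = 0.00095).

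Signals besides Top2b divided the same 6 arrays completely. The strongest was a probe for Esr1, the gene of oestrogen receptor alpha, at chr10:5489352-5489411 (mm9, minus strand). Its sequence is shown because it lies in the coding part for the hormone-binding domain, the part of the receptor that is also used in hormone-inducible recombinase fusions.
Esr1 probe: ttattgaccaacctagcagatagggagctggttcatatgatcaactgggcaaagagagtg
The Esr1 probe stood at 5.91, 5.73 and 6.45 on the Top2b-deleted arrays and was not well above background on any wild-type array, where it read -5.78, -5.95 and -5.48. Set against the background level this was at least 753-fold higher (adjusted p = 0.00053), and the 3 other Esr1 probes were not well above background on any of the 6 arrays. At 72 h the same probe read 6.89, 6.70 and 7.10 in Top2b-deleted cardiomyocytes. In wild-type cardiomyocytes of 72 h it read 8.41 and 8.58 on replicates 2 and 3, and -6.18 on replicate 4. The source of the signal was not tested.

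Y-linked transcripts went the other way. Ddx3y, a Y-linked RNA helicase, was not well above background on the Top2b-deleted arrays (-6.08, -5.80 and -6.13), against 2.58, 2.78 and 2.73 on the wild-type arrays. Xist, the RNA that silences the inactive X chromosome, read -2.21, -1.96 and -2.12 on the Top2b-deleted arrays and was below background on the 3 wild-type arrays. The labels call all of these mice male. Within the PBS arrays of 16 h, genotype, the Esr1 signal and the Y-linked signal cannot be told apart, and results are therefore given for autosomal genes only. At 72 h the Y-linked signal was present on 1 array of each genotype, Top2b-deleted replicate 3 and wild-type replicate 4.

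**Figure D1:**
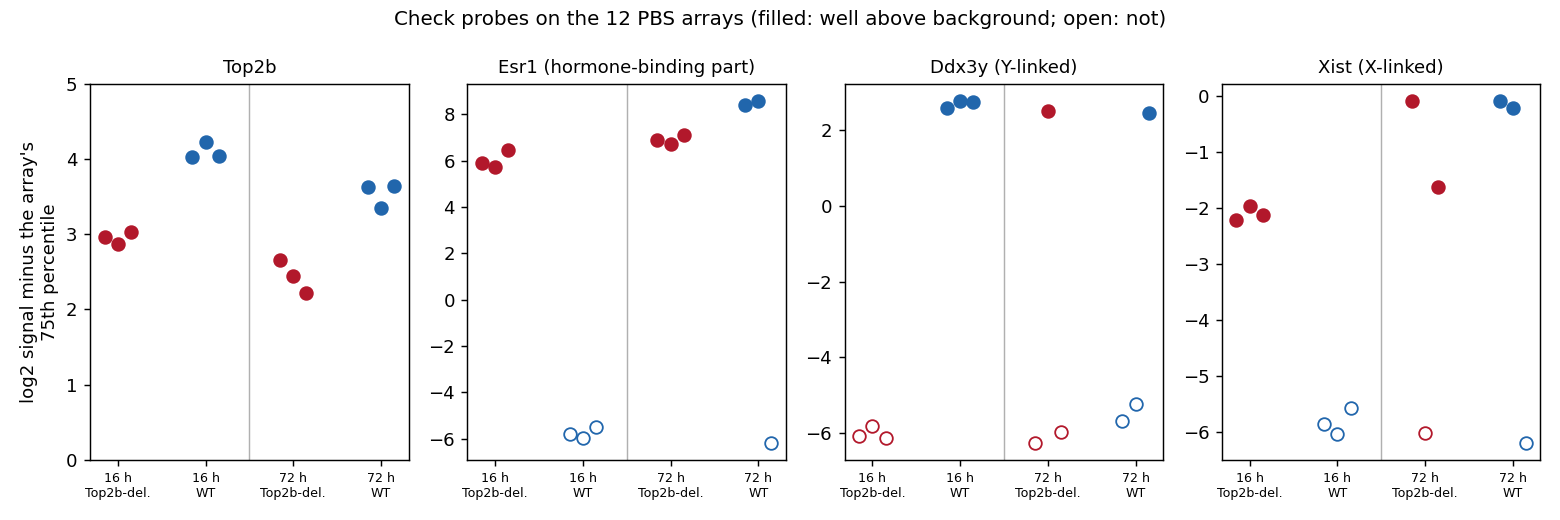
Levels of 4 probes (log2 signal minus the array's 75th percentile) on the 12 PBS arrays, 1 point per array, Top2b-deleted left of wild type at each time; open points were not well above background. Top2b separates the genotypes at both times, whereas the Esr1 probe, Ddx3y and Xist divide the 16 h arrays completely and the 72 h arrays along other lines.

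Of 17916 autosomal genes tested, 2227 passed the threshold (12.4%). In Top2b-deleted cardiomyocytes 1196 were higher (6.68%) and 1031 lower (5.75%), and 998 changed at least 2-fold (5.57%). The median over all autosomal genes was -0.01, as the scaling of each array would give. Fewer genes passed with fewer arrays: leaving out any 1 of the 6 left between 922 and 1289, whichever array it was. In such counts the power lost with an array and the weight of that array cannot be told apart. With slide as a block 1175 passed. The second slide holds no wild-type array, so that block only takes Top2b-deleted replicate 3 out of the comparison, without which 1172 passed. Slide and genotype are therefore not separated by it. Within the first slide, which holds 2 Top2b-deleted and 3 wild-type arrays of PBS, 745 passed. With the Y-linked signal as a covariate 1725 passed, of which 1044 were among the 2227. That covariate is estimated from the doxorubicin arrays of 16 h, the only groups that mix arrays with and without the signal, and there 2 genes (0.0112%) passed for the signal itself and 2919 had an unadjusted p under 0.05.

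**Figure D2:**
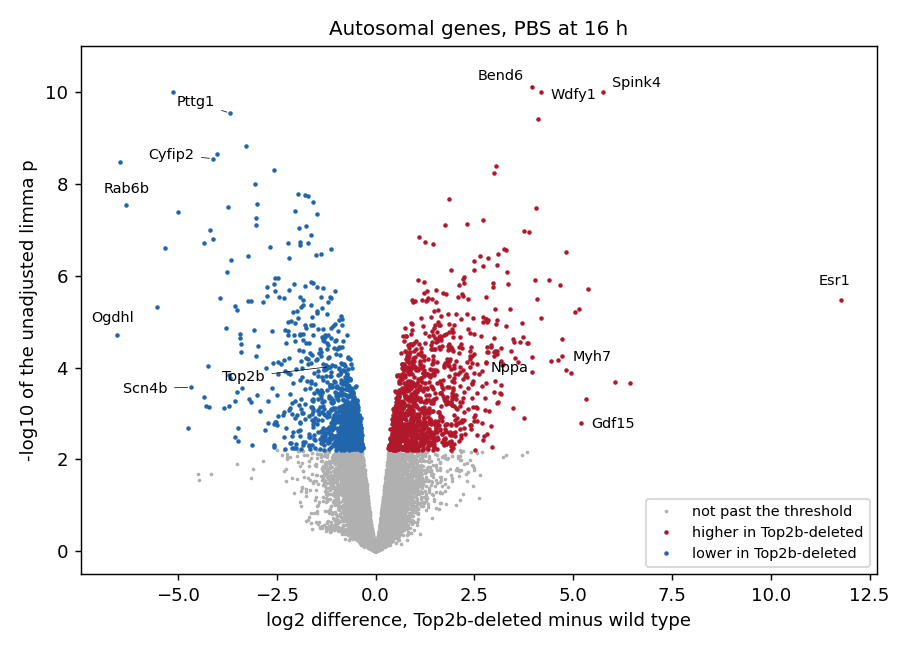
Each point is an autosomal gene, with its log2 difference (Top2b-deleted minus wild type, PBS at 16 h) across and the -log10 of its unadjusted limma p upward; coloured points passed the threshold. Rises and falls were close in number, 1196 and 1031. The position of Esr1, furthest to the right, is a difference from probes that were not well above background in wild type and is no measured size.

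Genes of the fetal and stress programme of heart muscle stood among the largest rises. Myh7, the slow beta isoform of myosin heavy chain that the adult mouse ventricle scarcely uses, stood at 8.37, 8.26 and 8.52 in Top2b-deleted cardiomyocytes, against 3.66, 3.70 and 3.64 in wild-type cardiomyocytes. That is a 26.3-fold difference with 3 tight values on each side (4.72 ± 0.72, adjusted p = 0.0030). The SDs of these groups were 0.13 and 0.03, and the larger SE takes in the spread of the doxorubicin arrays. Gdf15, a stress-induced hormone of the TGF-beta family, read 6.05, 5.76 and 5.95 against 0.04, 1.83 and 0.30 (5.20 ± 1.23, adjusted p = 0.022). Itgb1bp3, which encodes a nicotinamide riboside kinase that rises in stressed muscle, read 6.80, 7.17 and 6.52 against 1.64, 2.86 and 2.82 (4.39 ± 0.44, adjusted p = 0.00032). Nppa, the gene of atrial natriuretic peptide, read 10.67, 10.81 and 10.61 against 7.48, 9.13 and 8.14 in wild-type cardiomyocytes (2.44 ± 0.38, adjusted p = 0.0030). Ctgf, a matricellular growth factor, rose by 2.91 ± 0.42 (adjusted p = 0.0022). In all, 7 of 19 measured members of the list rose and 0 fell, with a median of 1.79, against a median of -0.01 and 6.68% higher over all autosomal genes. Between 5 and 7 rose when any 1 array was left out.

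Several well-known members of that list missed the threshold. Nppb, the gene of brain natriuretic peptide, differed by 2.38 (adjusted p = 0.067), Ankrd1 by 1.59 (adjusted p = 0.067) and the fetal skeletal actin Acta1 by 1.62 (adjusted p = 0.088). The values of Myh7 at 72 h followed the Esr1 probe and not the genotype label. Its levels were 7.34, 7.31 and 8.42 in Top2b-deleted cardiomyocytes of 72 h, against 8.37 and 8.26 on wild-type replicates 2 and 3, where the Esr1 probe was bright, and 3.26 on replicate 4, where it was dark. Nppa did not do so: it read 9.89, 9.63 and 10.40 in Top2b-deleted cardiomyocytes of 72 h, against 5.95, 5.94 and 6.88 in wild-type cardiomyocytes. The part of the Esr1 signal in any 16 h difference was not tested.

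The other large rises came from genes of varied function. Spink4, a small secreted protease inhibitor of gut epithelium, read 3.97, 3.93 and 3.65 in Top2b-deleted cardiomyocytes against -1.99, -1.87 and -1.86 in wild-type cardiomyocytes (5.76 ± 0.23, adjusted p = 4.8e-07). Serpinb1a, an intracellular inhibitor of neutrophil proteases, rose by 5.15 ± 0.61, and Krt18, an epithelial keratin, by 4.66 ± 0.48. Inhba, the subunit of activin A, read 2.63, 3.16 and 2.41 against -2.57, -1.49 and -2.24 (4.83 ± 0.42). Arc, an activity-regulated gene of neurons, rose by 4.71 ± 0.66, the chemokine receptor gene Cxcr6 by 4.83 ± 0.81 and the heparan sulphate proteoglycan gene Sdc4 by 4.04 ± 0.41. Wdfy1, an adaptor of endosomal Toll-like receptors, rose by 4.20 ± 0.16 on its brightest probe, while its 4 kept probes ran from -0.23 to 4.20. Bend6, a BEN-domain repressor, read 0.83, 0.82 and 0.95 against -3.14, -3.14 and -3.01 in wild-type cardiomyocytes (3.96 ± 0.15, adjusted p = 4.8e-07). Psca, a glycolipid-anchored surface protein, was at least 14.9-fold higher and Star, which moves cholesterol into mitochondria for steroid synthesis, at least 9.75-fold higher. Both were not well above background on any wild-type array.

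The largest falls took in a cardiac sodium channel subunit and several enzymes and trafficking genes. Scn4b, the beta-4 subunit of voltage-gated sodium channels, read -3.31, -3.11 and -3.15 in Top2b-deleted cardiomyocytes against 2.53, -0.11 and 2.00 in wild-type cardiomyocytes (-4.66 ± 0.87, adjusted p = 0.0077). The groups did not overlap, although wild-type replicate 2 lay well below the other wild-type arrays. Cyfip2, a regulator of actin assembly, read -0.15, -0.36 and 0.22 against 4.16, 4.02 and 3.87 (-4.11 ± 0.22, adjusted p = 5.9e-06). Pttg1, the securin that restrains separase, read 2.02, 2.18 and 2.33 against 5.78, 5.88 and 5.90 (-3.67 ± 0.16, adjusted p = 1.1e-06). Ogdhl, a relative of the 2-oxoglutarate dehydrogenase subunit, was at least 21.2-fold lower and not well above background on any Top2b-deleted array, where wild-type arrays read 0.52, 0.54 and 0.56. Rab6b, a small GTPase of Golgi traffic, read -4.59, -5.19 and -3.88 against 1.76, 1.55 and 2.00 (-6.32 ± 0.43, adjusted p = 2.5e-05), and was well above background on 1 of 3 Top2b-deleted arrays. Stbd1, which tethers glycogen, fell by 3.06, and Spna1, the red-cell form of alpha spectrin, fell by 3.74. Arhgef19 and Fbxo44 rested less evenly on the arrays, and the 2 kept probes of Arhgef19 differed in size (-4.20 and -0.28). Arhgef19 read -3.51, -2.70 and 0.75 in Top2b-deleted cardiomyocytes against 2.48, 2.30 and 2.36, and Fbxo44 read -2.87, -2.46 and 0.76 against 2.14, 1.92 and 2.03, so that replicate 3 sat apart in both.

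**Figure D3:**
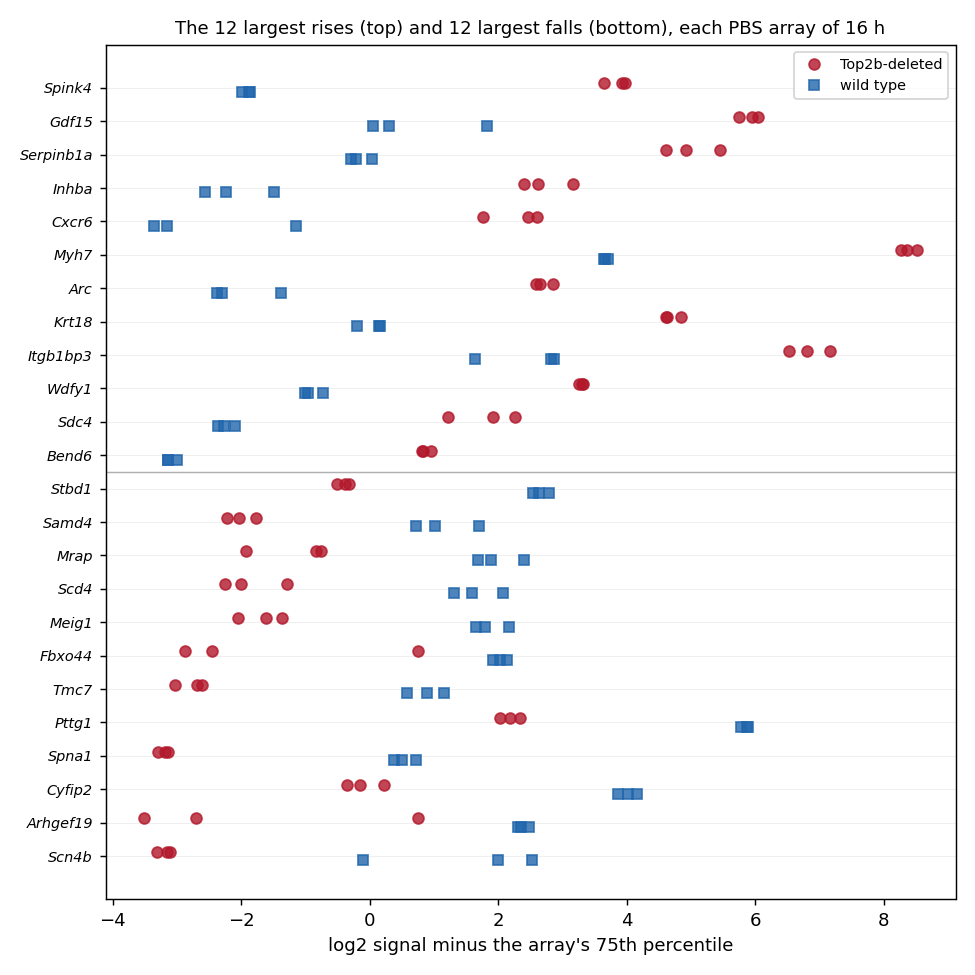
Log2 signal minus the array's 75th percentile (horizontal) on each of the 6 PBS arrays of 16 h, for the 12 largest rises and 12 largest falls among genes well above background on all 6 arrays; circles are Top2b-deleted and squares wild-type arrays. The groups do not overlap, which the choice of genes required, and Arhgef19 and Fbxo44 show 1 Top2b-deleted array nearer to wild type, at 0.75 and 0.76.

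Of 45 measured sarcomere genes 6 rose and 1 fell, with a median of 0.03, and 15.6% passed against 12.4% over all genes. Between 3 and 9 rose when any 1 array was left out. Besides Myh7, the fetal troponin I gene Tnni1 rose by 2.88 (adjusted p = 0.016), and Tnnc1, the troponin C of slow and cardiac muscle, read 8.84, 8.83 and 8.71 against 7.48, 7.81 and 7.87 (1.07 ± 0.16, adjusted p = 0.0028). Pdlim3, a Z-disc partner of alpha-actinin, read 5.36, 5.31 and 5.16 against 1.91, 2.15 and 3.31 (2.82 ± 0.41, adjusted p = 0.0023). Tpm2, the beta tropomyosin, fell by 1.48 (adjusted p = 0.0084). The main adult genes Myh6 (-0.39, adjusted p = 0.14), Actc1 (-0.32, adjusted p = 0.17) and Tnni3 (-0.30, adjusted p = 0.11) did not pass.

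Genes that burn fatty acids fell more often than they rose. In the list of fatty acid uptake and oxidation 11 of 39 measured members fell and 2 rose, with a median of -0.36. The share that passed was 33.3%, against 12.4% over all autosomal genes, of which 5.75% were lower. Hadh, the mitochondrial 3-hydroxyacyl-CoA dehydrogenase, read 6.31, 6.23 and 6.26 in Top2b-deleted cardiomyocytes against 7.24, 7.08 and 7.21 in wild-type cardiomyocytes (-0.91 ± 0.15, adjusted p = 0.0049). Acsl6, an acyl-CoA synthetase, fell by 2.14 (adjusted p = 0.0011), and Cpt2, Slc25a20, Acaa2, Acadm and Etfdh fell by less, between 0.41 and 0.68. Ucp2, an inner-membrane carrier, rose by 1.45 ± 0.29, and Cpt1a, the liver form of the carnitine shuttle enzyme, by 0.73. Between 2 and 4 members fell when any 1 array was left out, while the median stayed between -0.39 and -0.30. With the Y-linked signal as a covariate 4 members fell, and within the first slide 1 fell.

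A few genes of the respiratory chain fell, each by less than 1 on the log2 scale. Of complex I 4 of 35 measured genes fell and 0 rose (median -0.28), and of complexes II to V 4 of 40 fell and 0 rose (median -0.26). The shares that passed, 11.4% and 10%, were no larger than the 12.4% over all genes. Leaving out any 1 array left 0 to 2 falls in complex I and 1 to 3 in complexes II to V, and with the Y-linked signal as a covariate or within the first slide 0 passed in limma in either list. Cox7a1, the muscle isoform of a cytochrome c oxidase subunit, read 9.65, 9.64 and 9.67 against 10.31, 10.26 and 10.46 (-0.68 ± 0.13, adjusted p = 0.0083). Ndufa12 of complex I differed by -0.58 ± 0.12 (adjusted p = 0.012). The regulators of mitochondrial biogenesis gave 2 falls in 26 measured genes (7.69%). These were Opa1 (-0.50) and Mfn1 (-0.41), both of which fuse mitochondria, and neither passed when any 1 array was left out. Ppargc1a, the coactivator PGC-1 alpha, differed by -0.36 (adjusted p = 0.65) and Ppargc1b by -0.36 (adjusted p = 0.80). Pdhb, a subunit of pyruvate dehydrogenase, read 7.43, 7.32 and 7.31 against 8.58, 8.71 and 8.72 (-1.31 ± 0.22, adjusted p = 0.0044). Glucose handling moved both ways: 3 of 32 measured genes rose and 5 fell, among them the glucose transporter gene Slc2a1 (0.95 ± 0.22) and the muscle glycogen synthase gene Gys1 (-0.62 ± 0.13). In the glucose list 25% passed, and leaving out any 1 array left 1 to 2 rises and 0 to 2 falls there.

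The cardiomyocyte markers were lower beside these lists. Of the 12 markers, all measured, 2 fell, Ckmt2 and Ckm (16.7% against 12.4% passing over all genes), and the median was -0.38. Their summed signal, in multiples of the 75th percentile, was 9093 to 9647 on Top2b-deleted arrays and 11366 to 12687 on wild-type arrays. The part of this difference in the lower energy genes was not tested.

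Of 33 measured genes of calcium handling 4 fell and 0 rose (median -0.18), and the 12.1% that passed is close to the 12.4% over all genes. Between 0 and 2 fell when any 1 array was left out. Atp2a2, the calcium pump of the sarcoplasmic reticulum, read 9.05, 9.03 and 9.06 against 9.42, 9.39 and 9.51 (-0.39 ± 0.11, adjusted p = 0.046), and Cacna2d1, a calcium channel subunit, fell by 0.88 (adjusted p = 0.016). Sln, the atrial pump inhibitor sarcolipin, differed by -2.49 (adjusted p = 0.050) and did not pass. Of 30 channel and connexin genes 13.3% passed, also close to the 12.4% over all genes. In this list 3 fell and 1 rose (median -0.33), with 1 to 2 falls when any 1 array was left out. Scn4b was the steepest of them, and the potassium channel genes Kcna4 (-0.56) and Kcnj11 (-0.92) were the others. The connexin gene Gja1 differed by 0.17 (adjusted p = 0.76).

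Adrenergic receptor genes moved in both directions. Adra1a, the alpha-1A receptor, read -4.10, -4.03 and -3.62 in Top2b-deleted cardiomyocytes against -1.92, -1.97 and -2.08 in wild-type cardiomyocytes (-1.92 ± 0.16, adjusted p = 8.3e-05), although only 1 of the 3 Top2b-deleted arrays was well above background. Adra1d fell by 1.54 and the phosphodiesterase gene Pde2a by 1.61. The alpha-2A receptor gene Adra2a was well above background on the Top2b-deleted arrays alone, at least 1.73-fold higher (adjusted p = 0.00017). The receptor kinase gene Grk5 rose by 1.93 ± 0.35, and Prkar1a, a regulatory subunit of protein kinase A, by 1.23 ± 0.21. The beta-1 receptor gene Adrb1 differed by -0.03 (adjusted p = 0.95). Of 31 measured genes in this list 5 rose and 3 fell, and 25.8% passed against 12.4% over all genes. With any 1 array left out 3 to 4 rose and 1 to 2 fell.

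Several matrix genes rose, with markers of fibroblasts beside them. Of 33 measured genes of collagen and matrix 10 rose and 1 fell (median 0.61), and 33.3% passed against 12.4% over all genes. Postn, the matricellular protein of activated fibroblasts, read 1.57, 2.52 and 1.12 against -0.83, -0.99 and -1.42 (2.82 ± 0.42, adjusted p = 0.0026). Tgfb2 read 3.11, 3.22 and 2.94 against 0.55, 1.16 and 1.14 (2.14 ± 0.35, adjusted p = 0.0040), and Col1a1 rose by 1.68 ± 0.38. The 1 fall was the matrix protease gene Adamts4 (adjusted p = 0.014), which was not well above background on any Top2b-deleted array and for which no fold is given. Leaving out any 1 array left between 3 and 9 rises. At 72 h 0 of the list passed, where only 2.12% of all autosomal genes did.

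Of 14 measured fibroblast markers 7 rose and 0 fell (median 1.05), and 50% passed against 12.4% over all genes. Postn, Col1a1 and Col3a1 belong to both the fibroblast and the matrix list. Between 2 and 5 rose when any 1 array was left out, and 2 rose with the Y-linked signal as a covariate. Their summed signal was 96.1 to 173 on Top2b-deleted arrays and 48.6 to 73.0 on wild-type arrays, against 9093 and more for the cardiomyocyte markers. Tcf21, a defining fibroblast factor, was not measured. Pdgfra differed by 0.66 (adjusted p = 0.24). Whether more fibroblasts or more RNA per fibroblast lies behind the matrix genes cannot be told apart.

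Markers of other cells of the heart varied in direction. Of 15 endothelial markers 2 fell, Tie1 and Emcn, and 0 rose (median -0.69), with a summed signal of 72.0 to 95.9 in Top2b-deleted cardiomyocytes against 88.8 to 133 in wild type. The 13.3% of endothelial markers that passed is close to the 12.4% over all genes. Between 0 and 2 endothelial markers fell when any 1 array was left out. Smooth muscle and pericyte markers gave 2 rises and 3 falls in 13 (38.5% passed). They gave 1 to 2 rises and 1 to 2 falls when any 1 array was left out. Of these Myh11, smooth muscle myosin, fell by 1.57 (adjusted p = 0.011), and Cspg4 rose by 1.55. None of 13 measured macrophage markers passed in limma (summed signal 94.5 to 117 against 91.7 to 102), although all 13 lay above 0 with a median of 0.61, nor did any of 5 neutrophil, 4 lymphocyte or 3 erythroid markers. Sox10, the Schwann cell factor, fell by 1.78 (adjusted p = 0.0012). Of 7 measured atrial markers 1 rose, Nppa, and 1 fell, Fgf12 (28.6% passed against 12.4% over all genes). Their median was -1.80, and it lay between -2.49 and -1.02 when any 1 array was left out.

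Of 27 measured immediate early genes 7 rose and 0 fell (median 0.56), and 25.9% passed against 12.4% over all genes. Leaving out any 1 array left 2 to 4 rises, and the Y-linked signal as a covariate gave 12 rises and a median of 1.04. Jund, a subunit of AP-1, read 5.78, 5.72 and 5.79 against 5.05, 4.79 and 4.77 (0.89 ± 0.11, adjusted p = 0.0012), and Maff, Egr2, Ier5, Klf6 and Dusp4 rose as well. Fos (0.17, adjusted p = 0.82) and Jun (0.27, adjusted p = 0.21) did not pass. Of 23 measured genes of inflammatory cytokines and their STAT3 response 4 rose and 0 fell (17.4% passed). Between 2 and 4 rose when any 1 array was left out. Osmr, the oncostatin M receptor, read 2.11, 1.93 and 1.85 against -0.33, -0.56 and 0.69 (2.02 ± 0.32), and Serpina3n, an acute-phase protease inhibitor, differed by 4.96 ± 0.84 with 2 of 3 wild-type arrays above background. Interferon-stimulated genes gave 1 call in 34 (2.94%), below the 12.4% over all genes. That call was Rsad2, which fell by 2.09, and Cxcl10, at 3.23, missed the threshold (adjusted p = 0.062).

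Lists of the DNA damage response held rises and falls. Among 33 measured p53 targets 4 rose and 2 fell, with a median of 0.10, and 18.2% passed against 12.4% over all genes. With any 1 array left out 3 to 4 rose and 0 to 1 fell. Phlda3, a p53-induced inhibitor of Akt, read 3.24, 3.38 and 3.20 against 1.71, 1.90 and 1.83 (1.46 ± 0.23, adjusted p = 0.0033), and Plk2 rose by 1.54 ± 0.26. The canonical targets Cdkn1a (0.77, adjusted p = 0.26) and Mdm2 (0.03, adjusted p = 0.93) did not pass. In the repair list 6.67% passed: 1 of 30 rose, Rnf168, and 1 fell, Ung. Among apoptosis genes Bcl2, which restrains cell death, read 0.60, 0.72 and 0.57 against -1.63, -1.22 and -1.64 (2.13 ± 0.29, adjusted p = 0.0017), and Bik, which promotes it, read -0.42, -0.53 and -0.44 against 0.76, 1.05 and 0.84 (-1.35 ± 0.19, adjusted p = 0.0017). In that list 4 of 24 rose and 3 fell (29.2% passed), with 2 to 3 rises and 1 to 3 falls when any 1 array was left out.

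Antioxidant, heme and chaperone genes moved in both directions. Gpx3, the secreted glutathione peroxidase, read 5.68, 5.75 and 5.46 against 2.83, 3.50 and 3.31 (2.41 ± 0.35, adjusted p = 0.0023). Hmox1, heme oxygenase 1, rose by 2.01 ± 0.47 on its brighter probe and by 0.54 on its other kept probe. The extracellular superoxide dismutase gene Sod3 fell by 1.13. Of 37 measured antioxidant genes 4 rose and 3 fell, and 18.9% passed against 12.4% over all genes. With any 1 array left out 1 to 2 rose and 2 fell. In iron and heme metabolism 5 of 24 fell and 1 rose (25% passed against 12.4% over all genes), with a median of -0.29. Leaving out any 1 array left 3 to 4 falls and 1 rise. Among the falls was Ppox, an enzyme of heme synthesis, at -1.16 ± 0.13 (adjusted p = 0.00051). Hsp90aa1, the inducible cytosolic Hsp90, rose by 1.33 ± 0.23, and of 24 heat shock genes 3 rose and 1 fell, Hspb8 (-0.60, adjusted p = 0.044). The share of heat shock genes that passed was 16.7%, and leaving out any 1 array left 1 to 4 rises and 0 falls among them. Of the glucocorticoid and fasting list, Arrdc2 fell by 2.63 and Zbtb16 rose by 1.96, and its median was 0.00.

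**Figure D4:**
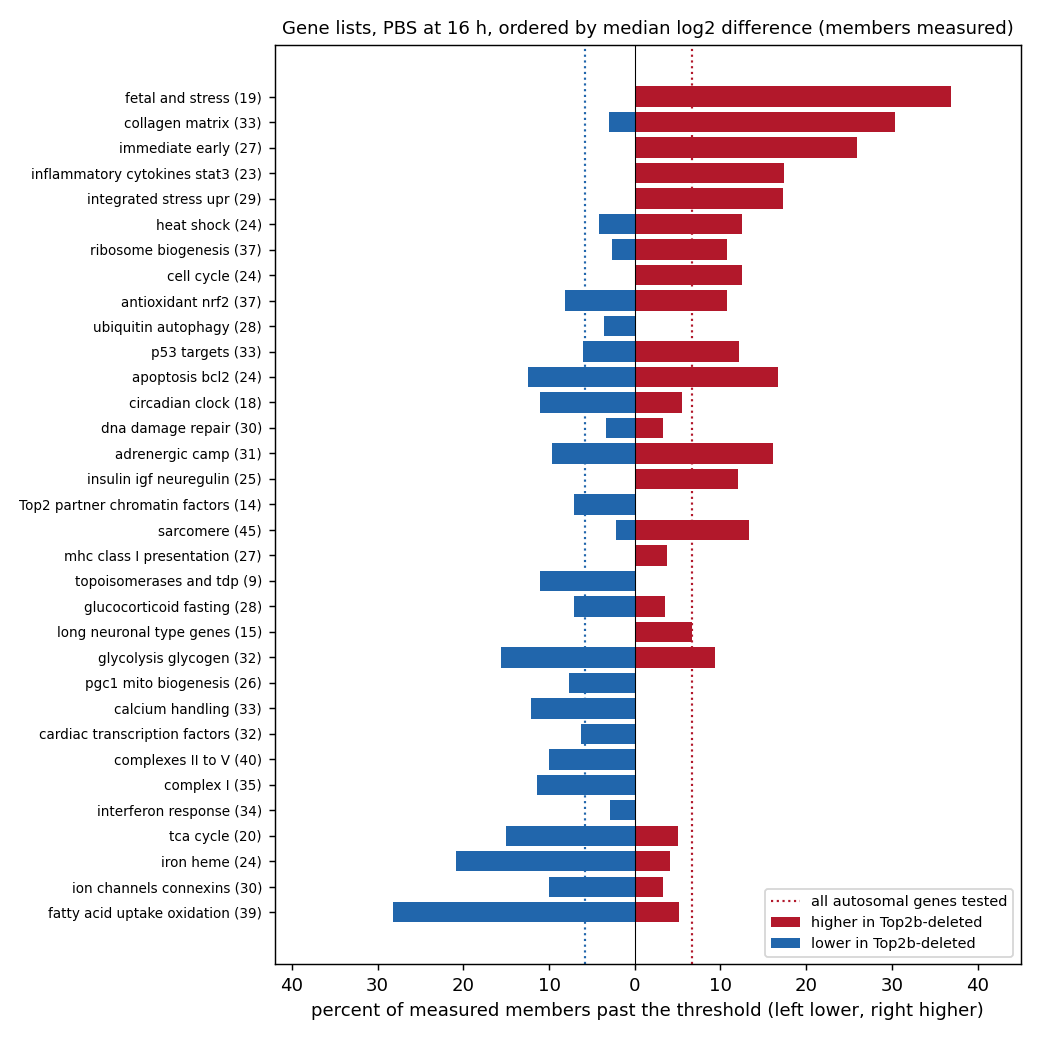
Share of the measured members of each pathway list (markers of cell types are not drawn) that passed the threshold at 16 h in PBS, higher in Top2b-deleted cardiomyocytes to the right and lower to the left; dotted lines mark the shares over all autosomal genes, 6.68% and 5.75%, and measured members stand in brackets. Among the lists drawn, fetal and stress, collagen and immediate early genes reach furthest to the right, and fatty acid genes furthest to the left.

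The genes around Top2b on chromosome 14 were looked at by distance from its probe. Not counting Top2b, 3 of 17 genes within 2 Mb passed (17.6%), 9 of 51 at 2 to 5 Mb (17.6%) and 18 of 58 at 5 to 10 Mb (31%). Of the 18, 12 were lower in Top2b-deleted cardiomyocytes, among them Zmiz1 (-0.61 ± 0.10) and Anxa11 (-0.58 ± 0.11). Most of the 12 lie on 1 side, 9.22 to 9.95 Mb from the Top2b probe. Several of them are probes of unnamed intervals, some of which overlap, so the 31% counts some stretches more than once. Over single autosomes the share lay between 10.9% and 15.2%. Gene length was known for only 73.6% of the genes tested, so a check by length is void and is not given.

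At 72 h the same genotypes were compared on 6 further PBS arrays, where 398 of 18782 autosomal genes passed (2.12%), 195 higher (1.04%) and 203 lower (1.08%). Of the 2227 genes of 16 h, 228 passed in the same direction at 72 h, which is 10.2% of the 16 h list and 57.3% of the 72 h list, and 1 passed in the opposite direction (Adi1). Of 2125 measured at both times 88.7% had the same sign. The genes that rose at 16 h had a median of 0.95 there and 0.43 at 72 h, and those that fell had -0.80 and -0.34. Top2b differed by -1.10 at 72 h (46.6% of wild type, adjusted p = 0.031).

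The genes that passed at both times included some with large differences. Rab6b read -4.92, -6.08 and -5.20 in Top2b-deleted cardiomyocytes of 72 h against 2.10, 1.77 and 1.30 in wild-type cardiomyocytes (adjusted p = 1.5e-05), and no Top2b-deleted array of 72 h was well above background for it. Ocel1, an occludin-domain gene, read 5.29, 5.29 and 5.43 against 2.31, 2.74 and 2.81 at 16 h, and 4.82, 4.63 and 4.65 against 2.68, 2.48 and 2.30 at 72 h. These are the values of its brighter probe, and its other kept probe went the opposite way at 16 h (-1.77 against 2.71), so the direction of the gene is uncertain. Pttg1 kept its distance, with 1.74, 1.89 and 2.18 against 5.76, 5.53 and 6.43 at 72 h. Spink4 (4.65), Cyfip2 (-3.31), Scn4b (-5.57) and Nppa (3.72) passed at 72 h too. So did Bend6, well above background on 1 of 3 wild-type arrays of 72 h, and Fgl1, on 0 of 3 Top2b-deleted arrays, for which no size is given. For all of these the groups were apart on every array of both times, which choosing genes that passed at both times favours. Over all autosomal genes the groups did not overlap for 48.5% at 16 h and 19.5% at 72 h. The wild-type arrays of 72 h include replicate 4, which lacks the Esr1 signal, and replicates 2 and 3, which have it. The part of the Esr1 signal in these differences was not tested.

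Whether the genotype difference itself changed between the times was tested in a fit of all 24 arrays, doxorubicin arrays included. Of 17554 autosomal genes 1 passed, Wdfy1 (0.0057%), and 1221 had an unadjusted p under 0.05. On its brightest probe Wdfy1 read 3.31, 3.33 and 3.26 in Top2b-deleted cardiomyocytes of 16 h against -0.73, -1.003 and -0.96 in wild-type cardiomyocytes. At 72 h it read 2.40, 2.43 and 2.78 against 0.43, 0.30 and -0.38. Passing at 16 h alone therefore shows no difference between the times for any other gene, Myh7 included (adjusted p = 0.65). No slide holds arrays of both times, and time and slide cannot be told apart.

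**Figure D5:**
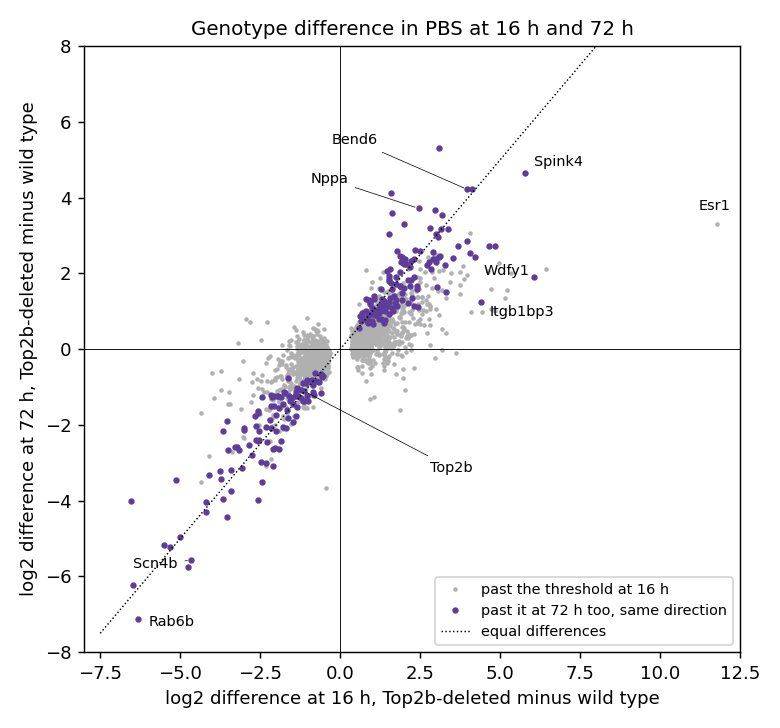
Log2 differences (Top2b-deleted minus wild type) at 16 h (horizontal) and at 72 h (vertical) for the genes that passed at 16 h and were measured at both times; purple points passed at 72 h in the same direction. The 228 purple points spread around the line of equal differences, and Esr1, furthest to the right, is set against wild-type arrays of 16 h below background.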

How the data were processed

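Cy3-labelled RNA was hybridised to 1-colour Agilent arrays. Per the file headers, the authors' scanner files were made with Agilent Feature Extraction 10.7.3.1, and the deposited processed signal is a background-corrected intensity with positions in mm9. The deposited value table holds each processed signal as a ratio to its array's median, as a comparison with the scanner files showed, and served as an alternative. Groups were taken from the sample titles.

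The intensity was taken to log2 after dividing by the array's 75th percentile. Control and outlier spots were left out, and probes had to exceed background clearly (the scanner's flag) on every array of 1 or more groups. The brightest kept probe stood for a gene. limma 3.58.1 in R 4.3.3 was fitted on the 12 arrays of 16 h (8 residual degrees of freedom), with Benjamini-Hochberg adjustment over 18751 genes and a threshold of 0.05. A fold written as at least N compares with the background level of the dim group. On simulated data of 18751 genes with 200 changed, 58% of 2-fold and 86% of 4-fold changes were recovered, with 9 false calls among 153. No spot was saturated, and the number of arrays limits the precision.

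Genes were named by rule: the steepest rises and falls without overlap between groups, bounded genes, topoisomerases, up to 4 genes per list by adjusted p, genes near Top2b and genes past the threshold at both times. Other list members are given for completeness and were picked with their values in view. The groups compared and all gene lists were chosen with earlier results of these data known. Alternatives covered background correction, normalization, filters, probe choice, slide, the Y-linked signal, replicate number and each array left out.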

Additional observations from a re-analysis of the deposited data

Results flagged for a closer look

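Wdfy1 was the only autosomal gene whose genotype difference in PBS passed limma's test between the times, at 16 h minus 72 h. The difference was larger at 16 h by 1.78 on the log2 scale (adjusted p = 0.044), with Top2b-deleted arrays above wild-type arrays at both times. No gene passed when any 1 of the 6 arrays of 16 h was left out, and the 2 times lie on different slides. The value rests on the brightest of 4 kept probes, whose differences at 16 h ran from -0.23 to 4.20.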

How the results depend on the processing

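The fall of Top2b kept its direction and its call under every alternative run on it, with values of -1.18 to -1.08 when 1 array was left out and -1.44 with the Y-linked signal as a covariate. The count of genes past the threshold (2227) was less stable. It was 1225 with no filter on dim probes, 4927 from the 6 PBS arrays alone, 735 at an adjusted p of 0.01 and 998 with a 2-fold minimum. With 1 array left out it was 922 to 1289. It was 1175 with slide as a block, which only takes Top2b-deleted replicate 3 out, and 745 within the first slide. The deposited value table gave 1750, of which 63.4% were higher, against 53.7% in the reported fit. The count shared with 72 h (228) was 142 with no filter on dim probes and 84 at an adjusted p of 0.01. It was 133 to 256 when 1 array of either time was left out, of which the 72 h arrays were an alternative chosen after seeing the data, and 256 is the value without wild-type replicate 4 of 72 h. The test between the times called 2 genes where probes had to be well above background on all 24 arrays, 0 after quantile normalization and 0 with any 1 array of 16 h left out. Atxn7 turned to 0.11 when its kept probes were averaged. With the Y-linked signal as a covariate 64 of 162 named genes lost their call, Gdf15 among them (adjusted p = 0.23). At 16 h same-numbered arrays of the genotypes did not deviate together (correlations of 0.063, -0.034 and 4.3e-05), so the numbers do not pair them at that time. At 72 h this was not examined, and there the replicate 4 arrays lie on another slide than replicates 2 and 3. A replicate block gave 1822 genes at 16 h, 381 shared with 72 h (228 without the block), and -1.14 for Top2b. The cause of these shifts was not tested. With 3 arrays a group, small differences of dim genes are beyond reach.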
